A study of Mus musculus with 8 samples.

Results

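The genes described here encode the machinery that copies DNA at the replication fork: the 3 replicative polymerases with primase, the sliding clamp and its loaders, the single-strand binding complex, the enzymes that finish lagging-strand fragments, and the proteins that stabilise a moving fork. The list named 33 genes, chosen by function but with earlier results of these data known. Each had at least 1 probe set assigned to it alone, so that all 33 were described. The array held 18193 genes with such a probe set. A gene was represented by its brightest probe set over all 8 arrays.

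The samples were bone marrow cells sorted on Cd11b, an integrin chain of granulocytes and monocytes, and came from mice aged 8 weeks, of mixed FVB and C57BL6 stock. The 4 control samples had the genotype E2F1-/-2+/+3f/f: no E2F1, both copies of E2F2, and loxP-flanked E2F3 without Cre. The 4 experimental samples had the genotype Mxcre;E2F1-/-2-/-3f/f: no E2F1, no E2F2, and loxP-flanked E2F3 together with the Mx-driven Cre. All mice, controls included, had been given 5 injections of 250 µg of pIpC, an interferon inducer that switches on the Mx promoter, and were killed 24 h after the last. The Mx promoter can act in many cell types, and recombination was not measured here. Only experimental mice carried Cre, so effects of Cre and of the E2F alleles cannot be told apart. Whether each sample was a separate animal is not given in the labels, so the p-values measure only sample-to-sample spread, some of which may be technical.

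DNA polymerase alpha with primase starts every new strand with a short RNA-DNA primer. Polymerase epsilon then extends the leading strand and polymerase delta the lagging strand, both held on DNA by the ring-shaped clamp PCNA, which replication factor C (RFC) loads. Many of these genes are textbook targets of E2F transcription factors, which switch on S-phase genes when a cell leaves G1. In the marrow the Cd11b-positive cells include dividing precursors beside mature granulocytes that no longer replicate their DNA. In such bulk RNA, fewer cells of a type and less RNA per cell cannot be told apart.

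The E2F recognition sequence was looked for at the starts of these genes, because it is the sequence through which the targeted factors act. The 4 words TTTCCCGC, TTTGGCGC, TTTCGCGC and TTTGCCGC, were searched on both strands in windows of 250 bases before to 50 bases after each RefSeq start (GRCm38.p6). Of the 33 genes, 27 matched an entry, with 32 windows. An E2F word stood in 10 of the 32 windows (31.2%), against 2.26% of all 32851 windows and 4.28% of the 7822 windows at least as rich in G and C as the median of the fork windows (62.2%). The words lay in 9 genes at 10 distinct places, 7 of them after the start site. The 30 bases around each are given below on the gene's strand, with the word in capitals, for the genes that rose first:

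Pole2, chr12:69228162-69228191 (minus strand): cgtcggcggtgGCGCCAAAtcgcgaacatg

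Lig1, chr7:13278841-13278870 (plus strand): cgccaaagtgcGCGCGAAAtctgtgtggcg

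Pold1, chr7:44548766-44548795 (minus strand): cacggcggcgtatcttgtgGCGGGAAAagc

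Atad5, chr11:80089411-80089440 (plus strand): cgctccggacgGCGGGAAAacccaattgac

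Pole4, chr6:82652890-82652919 (minus strand): ctctacccggcGCGGGAAAggggccgaaat

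Rfc3, chr5:151651200-151651229 (minus strand): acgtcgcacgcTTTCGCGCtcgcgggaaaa

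Rfc3, chr5:151651190-151651219 (minus strand): ctttcgcgctcGCGGGAAAactctactgtc

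Pold3, chr7:100121467-100121496 (minus strand): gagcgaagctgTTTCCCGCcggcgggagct

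Clspn, chr4:126556990-126557019 (plus strand): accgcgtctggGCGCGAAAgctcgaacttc

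Pola1, chrX:93632275-93632304 (minus strand): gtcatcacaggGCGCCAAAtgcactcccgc

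Words were present both in genes that rose and in genes that did not pass. Of the 9 genes that rose and had an entry, 4 held a word, and of the 18 that did not pass the test, 5 did. The word of Pole2 began at base 11 of the transcript, that of Lig1 at base 27 and that of Pold1 at base 40, while that of Pola1 began at position -138 before the start. Lig1 also had windows at other annotated starts, and those held no word. For comparison, 10 of 25 windows of helicase, licensing and firing genes held a word (40.0%), and 1 of 22 windows of mitosis and G2/M genes (4.55%). CCAAT, a common promoter element searched as CCAAT or ATTGG, stood in 40.6% of the fork windows and 37.4% of all windows. It stood in 60.0% of the helicase, licensing and firing windows and 77.3% of the mitosis windows. Within the fork list it stood in 3 of 12 windows of genes that rose and 10 of 20 of the others. A word is a description of these letters, not a binding site.

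The values are log2 expression levels from Affymetrix arrays normalized by RMA, so that a difference of 1 is a doubling of signal, and the number of arrays limits the precision. The median level of an array was 5.01 to 5.04, and each of the 33 fork genes lay above it on average. E2f2, deleted in the experimental group, was read by 2 probe sets. At the dimmer one it was 7.91, 7.82, 7.76 and 8.19 in controls and 7.06, 7.40, 7.11 and 7.47 in experimental arrays, lower in all 4 (difference -0.66 ± 0.13, SE, adjusted p = 0.0351). At the brighter one it was 9.54, 9.77, 9.90 and 10.20 in controls and 9.18, 9.53, 9.08 and 9.44 in experimental arrays, apart but short of the threshold (difference -0.55 ± 0.16, adjusted p = 0.107). E2f3 at its brighter probe set read 7.65, 7.43, 7.63 and 7.67 in controls and 7.88, 8.07, 7.69 and 7.90 in experimental arrays, higher and not lower, without passing (adjusted p = 0.201). At its dimmer probe set it read 5.39 to 5.69 and 5.48 to 5.78. The 3 probe sets of E2f1, null in both groups, differed by 0.24 to 0.58 and did not pass. The position of these probes against the deleted exons was not analysed here, so E2f3 does not check the labels.

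The comparison asks how the sorted cells differ when E2F2 and E2F3 are targeted in mice that already lack E2F1. Fork genes were higher in the experimental samples: 12 of 33 rose and 0 fell at adjusted p 0.05 (limma, over all 45037 probe sets). The rises lay between 1.45-fold and 2.59-fold. Among the 18193 genes, 1.53% rose and 1.95% fell, and 2.58% of all probe sets passed in either direction. The number that rose was 17 with the replicate number as a block, 19 with the style of the sample codes as a block, and 9 with the sex read from Xist and Eif2s3y as a block. By that reading 2 of 4 controls and 1 of 4 experimental samples were male, and Prim2, Atad5 and Fen1 lost their calls in that fit. Over the whole array, more probe sets were also called with the replicate or code style block than in the main fit. Fewer were called with the sex block. At its brightest probe set no fork gene was lower at an unadjusted p under 0.05 either. The share of all genes under that unadjusted cut was not counted. Counts at it, here and for the lists below, therefore have no background beside them. The median log2 difference was 0.50 over the 33 genes and 0.01 over all genes, and 31 of the 33 differences were above 0. In 24 of the 33 genes every experimental array lay above every control (5.62% of all genes), and in 0 every one lay below (6.79% of all genes). The number that rose was 7 without control replicate 4. The sample codes had one style in replicates 1 and 2 and another in 3 and 4, and within each style the median difference was 0.48.

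**Figure D1:**
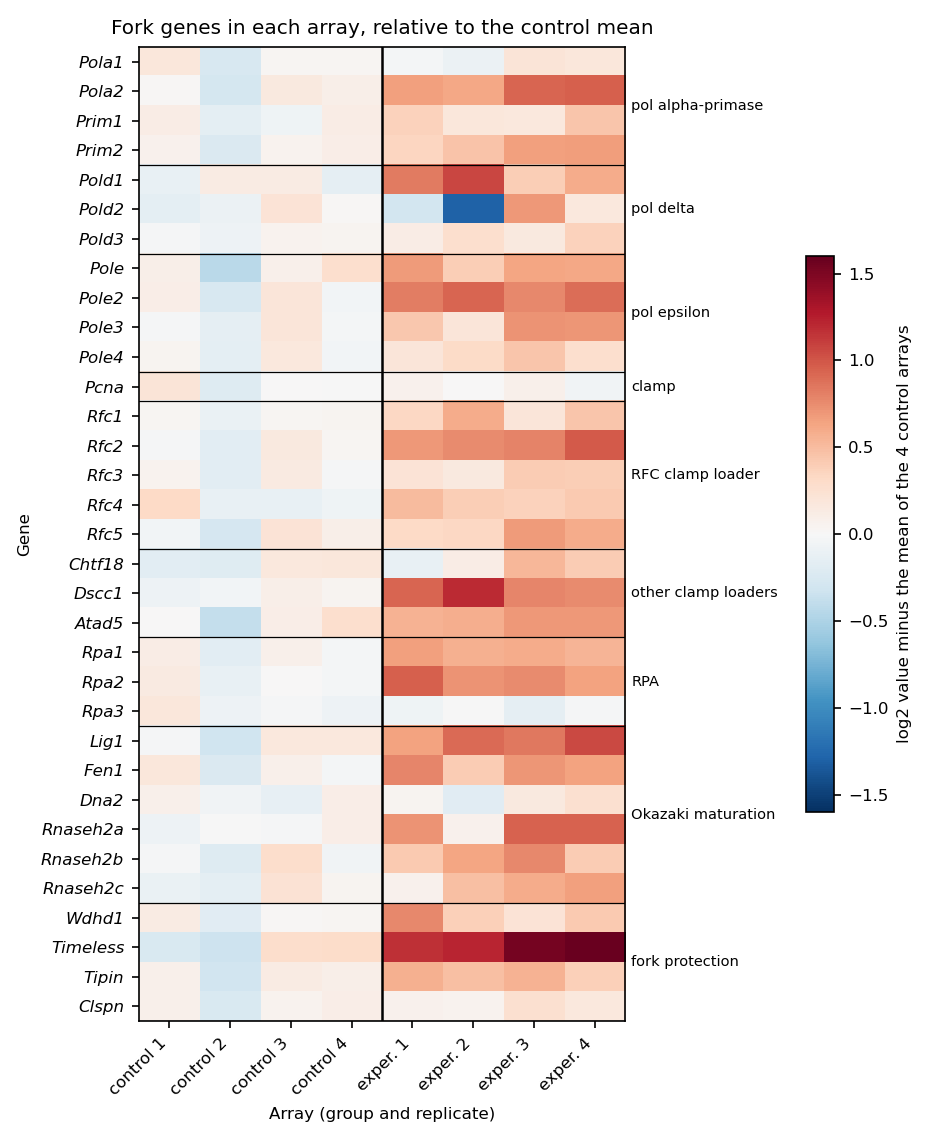
Log2 value of each of the 33 fork genes (rows, by complex) in each of the 8 arrays (columns), minus the mean of the 4 control arrays of that gene; red is higher and blue lower. The experimental columns are red for most genes, Pcna, Rpa3 and Dna2 stay pale, Pold2 is blue in experimental replicate 2, and control replicate 2 is pale blue in nearly every row.

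Control replicate 2 was the lowest control array for 27 of the 33 genes. Only 1 of the 33 genes was above its control mean in that array, against 20 in control replicate 1, 28 in replicate 3 and 21 in replicate 4. The experimental arrays had 29, 29, 32 and 31 genes above the control mean. Without control replicate 2 the median difference was 0.40 and 8 genes rose. Of the fits with an array left out, that fit also called the fewest probe sets over the whole array.

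DNA polymerase alpha and primase are a complex of 4 subunits. Pola2, the regulatory B subunit that anchors the polymerase, rose 1.73-fold. It read 7.83, 7.54, 7.97 and 7.91 in controls and 8.47, 8.43, 8.75 and 8.77 in experimental arrays, a log2 difference of 0.79 ± 0.13 (SE, n = 4 per group, adjusted p = 0.0152). The groups were apart by more than their spread, with the 2 highest experimental values in replicates 3 and 4. Its dimmer probe sets, whose mean levels of 4.85 and 4.63 lie below the array medians, did not share the rise (-0.15 and -0.03), and the mean of the gene's 3 probe sets did not pass (0.20, adjusted p = 0.140). Prim2, the large primase subunit, read 8.13, 7.83, 8.12 and 8.17 in controls and 8.41, 8.52, 8.72 and 8.73 in experimental arrays (difference 0.53 ± 0.12, SE, 1.45-fold, adjusted p = 0.0442). The arrays did not overlap, and a second probe set of Prim2 rose by 0.74 ± 0.12 (adjusted p = 0.0138), while a dim one read -0.03. The call at the brighter probe set was narrow: of the 8 fits that each leave out 1 array it passed only without experimental replicate 2 (adjusted p = 0.0491 to 0.123). Prim1, the catalytic primase subunit, differed by 0.29 ± 0.11 without overlap but did not pass (adjusted p = 0.198). Pola1, the catalytic subunit of the polymerase, lay at 7.77 to 8.21 in controls and 7.94 to 8.23 in experimental arrays, a difference of 0.07 with a 95% interval of -0.20 to 0.34.

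Polymerase delta copies the lagging strand. Pold1, its catalytic subunit, rose 1.65-fold. Its controls read 8.67, 8.93, 8.92 and 8.65 and its experimental arrays 9.63, 9.86, 9.19 and 9.39 (difference 0.72 ± 0.15, SE, n = 4 per group, adjusted p = 0.0370). Here replicates 1 and 2 of the experimental group were the high ones, and all 4 lay above the controls. The other probe set of Pold1 rose by 0.77 ± 0.17 (adjusted p = 0.0426). The call at the brighter one was lost when any single array other than experimental replicate 2 or 3 was left out (adjusted p = 0.0260 to 0.110 over the 8 fits). Pold3, an accessory subunit, differed by 0.23 ± 0.09 and did not pass (adjusted p = 0.232), although its groups did not overlap. Pold2, the subunit that binds Pold1 to the rest, read 8.03, 8.09, 8.40 and 8.21 in controls and 7.89, 6.89, 8.88 and 8.35 in experimental arrays. The experimental values spread over 1.99 log2 units, with replicate 2 lowest, and the difference of -0.18 ± 0.35 turned to 0.19 without that array (adjusted p = 0.693).

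Polymerase epsilon copies the leading strand and travels with the helicase. Pole2, its B subunit, rose 1.81-fold. Its 4 controls read 8.57, 8.21, 8.65 and 8.42 and its 4 experimental arrays 9.29, 9.40, 9.24 and 9.36 (difference 0.86 ± 0.11, SE, adjusted p = 0.00700). The experimental arrays lay within 0.16 of each other, and the lowest stood 0.58 above the highest control. A dim second probe set of Pole2 (mean 3.11) did not pass (0.08). Pole, the catalytic subunit, read 7.41, 6.88, 7.41 and 7.58 in controls and 8.00, 7.71, 7.95 and 7.94 in experimental arrays (difference 0.58 ± 0.15, adjusted p = 0.0801). It passed with the replicate number as a block (adjusted p = 0.0263). Pole3 and Pole4, small histone-fold subunits, differed by 0.51 ± 0.14 (adjusted p = 0.0869; 0.0339 with the replicate block) and 0.30 ± 0.10 (adjusted p = 0.157). At the brightest probe sets all 4 genes of the polymerase were higher in every experimental array than in any control (5.62% of all genes). The groups were only 0.004 apart for Pole3 and 0.03 for Pole4. At the other probe sets of Pole3 the groups overlapped. A second probe set of Pole4 read -0.05, and a dim one (mean 2.66) read -0.30 (limma, unadjusted p = 0.0443).

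Pcna, the clamp itself, did not pass the test. It read 12.67, 12.25, 12.47 and 12.45 in controls and 12.53, 12.47, 12.55 and 12.41 in experimental arrays. The experimental values all lay inside the range of the controls, and the difference of 0.03 ± 0.10 (SE, n = 4 per group, adjusted p = 0.929) had a 95% interval of -0.20 to 0.26. It changed sign with quantile normalization (-0.01) and without control replicate 2 (-0.04). The level of Pcna was 12.46 ± 0.17 (SD) in controls, below the highest value of each array (14.36 to 14.54), and 1 probe set represents the gene.

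Replication factor C opens the clamp and closes it around DNA, with 1 large subunit and 4 small ones. Rfc2, a small subunit, rose 1.75-fold. Its controls read 9.97, 9.83, 10.15 and 10.02 and its experimental arrays 10.68, 10.75, 10.78 and 10.97 (difference 0.81 ± 0.10, SE, adjusted p = 0.00672). The lowest experimental array lay 0.53 above the highest control, and both other probe sets of Rfc2 rose by like amounts (0.81 and 0.85). The large subunit gene Rfc1 (0.39 ± 0.10, adjusted p = 0.0875) and the small subunit genes Rfc3 (0.29 ± 0.10, adjusted p = 0.183), Rfc4 (0.42 ± 0.11, adjusted p = 0.0928) and Rfc5 (0.48 ± 0.13, adjusted p = 0.0947) did not pass. In all 5 genes the arrays of the groups were separate at the brightest probe set, with the experimental ones higher (5.62% of all genes). The groups were only 0.01 apart for Rfc3 and 0.05 for Rfc4. At the other probe sets of Rfc1 and Rfc3 the groups overlapped. Rfc5 passed with the replicate block (adjusted p = 0.0293), and Rfc4 passed without control replicate 1 (adjusted p = 0.0404), which at 8.62 was the highest of its controls. Another probe set of Rfc1 read -0.12.

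Other loaders share the small RFC subunits but replace the large one. Dscc1, a subunit of the loader that also serves sister chromatid cohesion, read 6.43, 6.46, 6.60 and 6.55 in controls and 7.45, 7.70, 7.30 and 7.27 in experimental arrays. The groups were 0.67 apart at their closest values, and the rise was 1.89-fold (difference 0.92 ± 0.11, SE, n = 4 per group, adjusted p = 0.00569), with 0.89 at its other probe set. Atad5, which takes the clamp off DNA after copying, read 7.28, 6.89, 7.37 and 7.54 in controls and 7.83, 7.85, 7.96 and 7.97 in experimental arrays (difference 0.63 ± 0.13, adjusted p = 0.0410), and its dim second probe set did not pass (0.18). With any 1 of the 8 arrays left out Atad5 no longer passed (adjusted p = 0.05001 to 0.108). Chtf18, the large subunit that works with Dscc1, was 6.06 to 6.43 in controls and 6.12 to 6.77 in experimental arrays, with overlap (difference 0.23 ± 0.16, adjusted p = 0.512).

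**Figure D2:**
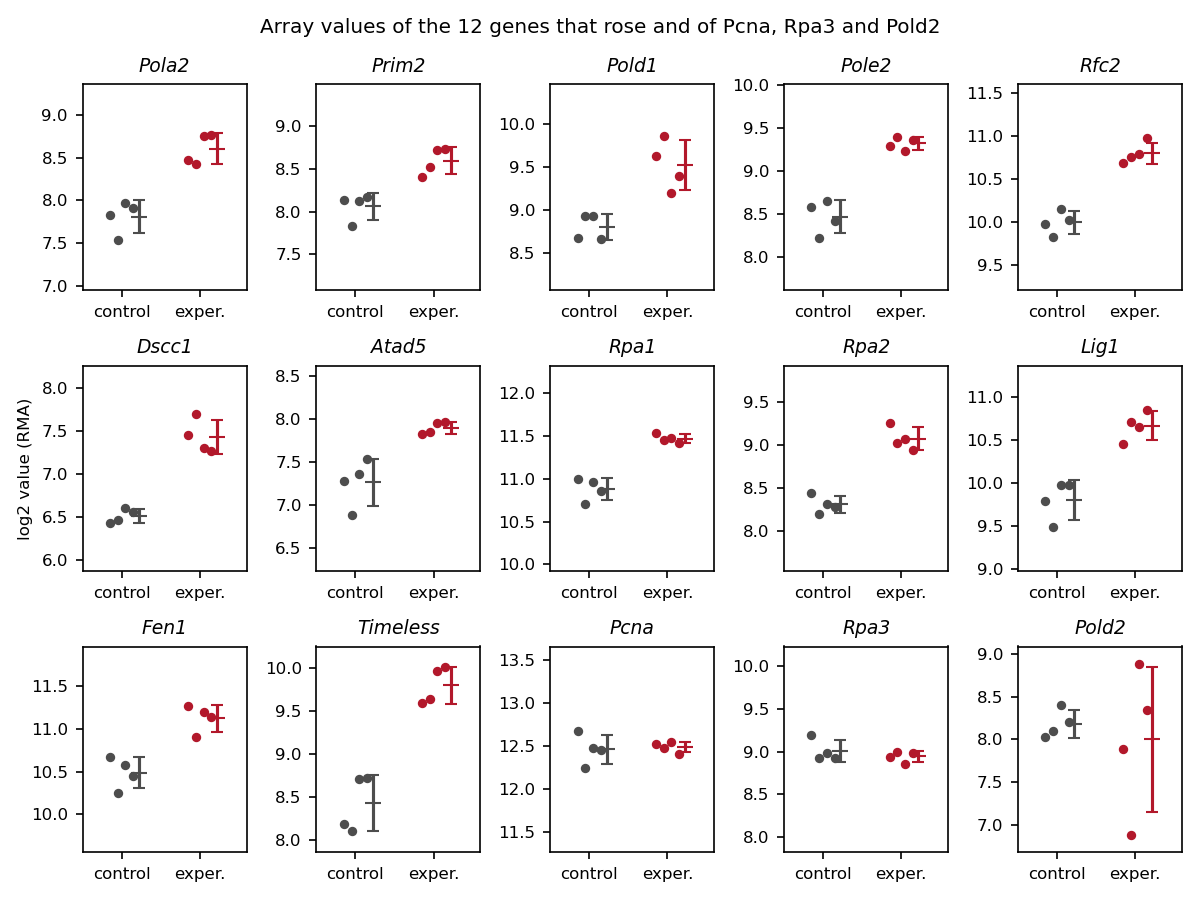
Log2 value in each array (points; every panel spans the same number of log2 units) with the group mean and SD (bars), for the 12 genes that rose and for Pcna, Rpa3 and Pold2, in 4 control and 4 experimental arrays. In the 12 genes that rose the groups do not overlap, while the experimental values of Pcna and most of those of Rpa3 lie within the control range and those of Pold2 are spread from 6.89 to 8.88.

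Replication protein A covers the single strands that the helicase exposes, as a trimer of Rpa1, Rpa2 and Rpa3. Rpa1, the large subunit, rose 1.5-fold, with controls of 11.001, 10.70, 10.96 and 10.85 and experimental arrays of 11.53, 11.45, 11.47 and 11.42 (difference 0.59 ± 0.09, SE, adjusted p = 0.0143). Rpa2, the middle subunit, rose 1.70-fold, with controls of 8.44, 8.19, 8.32 and 8.27 and experimental arrays of 9.26, 9.02, 9.07 and 8.95 (difference 0.77 ± 0.10, SE, adjusted p = 0.00731). Both genes rose at a second probe set as well (0.56 and 0.83). Rpa3, the smallest subunit, read 9.19, 8.92, 8.99 and 8.93 in controls and 8.94, 9.0, 8.86 and 8.98 in experimental arrays, a difference of -0.06 with a 95% interval of -0.27 to 0.15. The Rpa3 values of the groups overlapped. Rpa1 narrowly missed the threshold without control replicate 4 (adjusted p = 0.0511), and Rpa2 passed with any 1 array left out. Rpa2 lies on chromosome 4, as E2f2 does, with 72 measured genes from the one to the other.

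Lagging-strand fragments are trimmed by Fen1 and Dna2 and sealed by Lig1, DNA ligase I. Lig1 rose 1.82-fold, from 9.79, 9.49, 9.97 and 9.97 to 10.46, 10.71, 10.66 and 10.86 (difference 0.86 ± 0.13, SE, n = 4 per group, adjusted p = 0.0138). Fen1 rose 1.55-fold, from 10.67, 10.25, 10.57 and 10.45 to 11.26, 10.90, 11.20 and 11.13 (difference 0.64 ± 0.12, SE, adjusted p = 0.0271). For both genes the groups were separate, by 0.48 for Lig1 and 0.23 for Fen1. Fen1 kept its call only without control replicate 1 or experimental replicate 2 among the fits without 1 array (adjusted p = 0.0195 to 0.0826), and its other probe set did not pass (0.60, adjusted p = 0.0697). Dna2 lay at 9.36 to 9.60 in controls and 9.31 to 9.75 in experimental arrays, a difference of 0.07 with a 95% interval of -0.18 to 0.33, and a dimmer probe set read -0.0048. RNase H2, which removes ribonucleotides from DNA, has 3 subunit genes. None of them passed in the main fit: Rnaseh2a 0.67 ± 0.18 (adjusted p = 0.0920), Rnaseh2b 0.55 ± 0.13 (adjusted p = 0.0571) and Rnaseh2c 0.45 ± 0.15 (adjusted p = 0.147). Rnaseh2a read 7.55, 7.77 and 7.77 in experimental replicates 1, 3 and 4 but 6.90 in replicate 2, against 6.74 to 6.94 in controls, and it passed without that array (0.87, adjusted p = 0.00688). With the code style as a block Rnaseh2a (adjusted p = 0.0347), Rnaseh2b (0.0323) and Rnaseh2c (0.0429) passed. Rnaseh2b also passed with the replicate block (adjusted p = 0.0291) and without control replicate 3 (adjusted p = 0.0425). A dimmer probe set of Rnaseh2c rose by 0.53 ± 0.12 (adjusted p = 0.0451).

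The largest difference of the 33 genes was that of Timeless, whose protein pairs with Tipin at the fork to keep helicase and polymerases together. Timeless read 8.19, 8.09, 8.70 and 8.72 in controls and 9.59, 9.64, 9.96 and 10.01 in experimental arrays. Replicates 3 and 4 were higher than 1 and 2 in both groups, and the lowest experimental array lay 0.87 above the highest control. The rise was 2.59-fold (difference 1.37 ± 0.17, SE, n = 4 per group, adjusted p = 0.00621) and 1.46 ± 0.13 at the other probe set (adjusted p = 0.00176). Timeless passed under each of the 21 alternative settings, also within replicates 1 and 2 alone and within 3 and 4 alone. Its partner Tipin read 9.56, 9.16, 9.59 and 9.57 in controls and 10.03, 9.96, 10.02 and 9.85 in experimental arrays, apart but short of the threshold (difference 0.50 ± 0.12, adjusted p = 0.0567; 0.0473 with the replicate block). Clspn, claspin, which relays stalled forks to the checkpoint kinase, differed by 0.14 with a 95% interval of -0.10 to 0.37, and its dimmer probe set read -0.14. Wdhd1, which ties polymerase alpha to the helicase, differed by 0.45 ± 0.13 without overlap (adjusted p = 0.108).

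**Figure D3:**
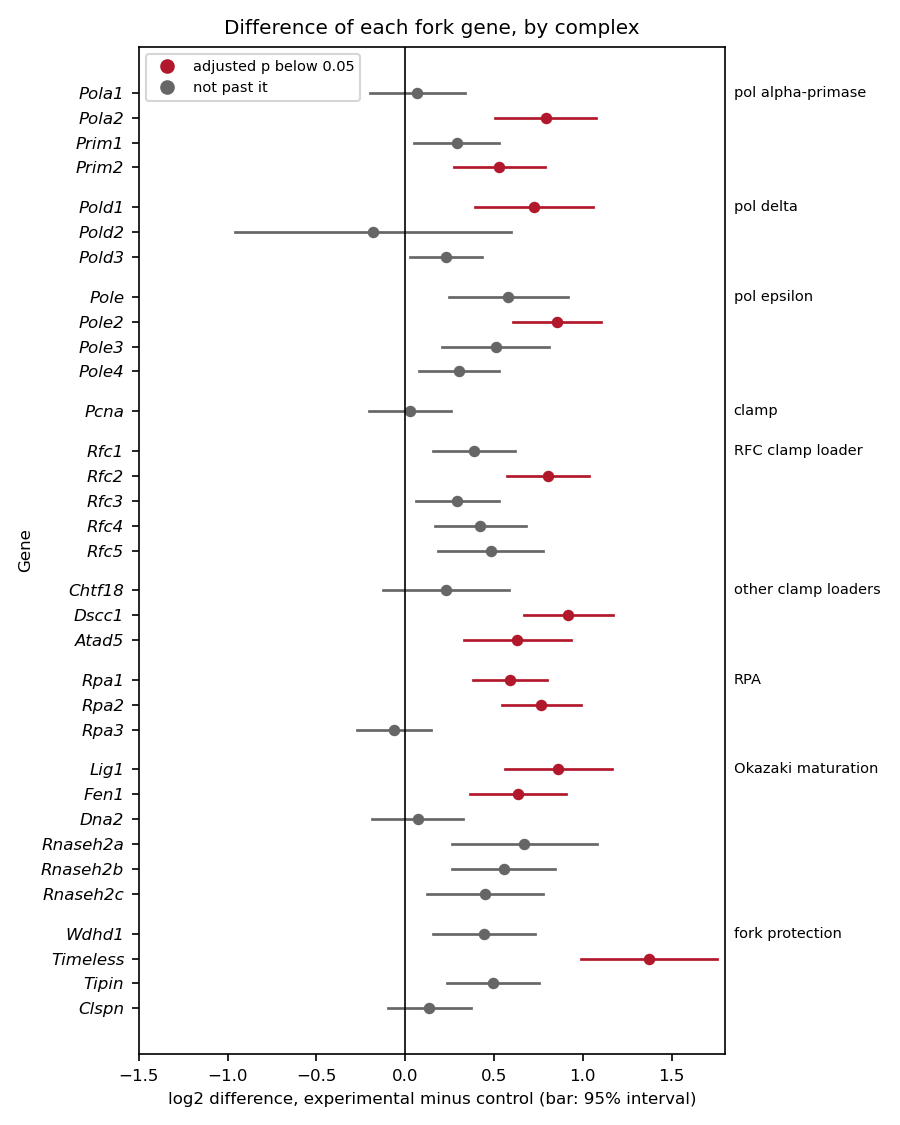
Log2 difference, experimental minus control, of each fork gene with its 95% interval from the moderated fit, by complex; red marks adjusted p below 0.05. Of the 33 points 31 lie to the right of 0, from 1.37 for Timeless down to 0.03 for Pcna, and Rpa3 (-0.06) and Pold2 (-0.18) lie to the left.

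The unequal change of partners was also measured as a log2 ratio of 2 subunits within each array, for the 34 pairs inside 7 assemblies. This comparison was chosen after the values had been seen. In each pair the gene with the larger difference was put over the other, so each ratio had to be higher in experimental arrays. The size of each change is the gap between 2 differences already given. The ratio of Rpa2 to Rpa3 was 0.83 higher in experimental arrays, from -0.70 ± 0.04 to 0.13 ± 0.16 (SD, n = 4 each; exact permutation test, two-sided, p = 0.0286, and 0.0694 after Benjamini-Hochberg adjustment over the 34 pairs). The ratio of Rpa1 to Rpa3 was 0.65 higher, that of Timeless to Clspn 1.24 higher, that of Timeless to Tipin 0.88 higher, that of Pola2 to Pola1 0.72 higher and that of Pole2 to Pole4 0.55 higher, each with the same exact permutation p. Rfc2 gained on Rfc3 by 0.51, on Rfc1 by 0.42 and on Rfc5 by 0.32. The p of 0.0286 is the smallest that 4 against 4 arrays can give, 14 pairs reached it, and 0 of 34 were under 0.05 after adjustment. The ratios among the subunits of RNase H2 differed by 0.10 to 0.22, with overlapping arrays and exact permutation p from 0.371 to 0.686.

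The rest of the replication pathway was read from lists of helicase, nucleotide, checkpoint and polymerase genes. Of 26 helicase, licensing and firing genes 17 rose and 0 fell (1 was lower at an unadjusted p under 0.05), with a median of 0.64. The strongest by p were the licensing genes Cdt1 (1.23 ± 0.10, SE), Orc1 (1.31 ± 0.11) and Cdc6 (1.05 ± 0.09) and the helicase subunit gene Mcm2 (0.98 ± 0.10), each past the threshold with any 1 array left out. Nucleotide supply was mixed, with 2 higher and 2 lower of 11: the ribonucleotide reductase gene Rrm1 (0.46 ± 0.10) and Dtymk (0.49 ± 0.11) rose, and Tyms (-0.59 ± 0.09) and the mitochondrial thymidine kinase gene Tk2 (-0.57 ± 0.12) fell. Rrm1 and Dtymk did not pass with any 1 array left out, Tk2 passed in 1 of those 8 fits, and Tyms passed in all but that without control replicate 4. The median of the nucleotide list was 0.03.

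Of 12 polymerase genes of repair or damage bypass, 1 rose and 1 fell, with a median of -0.11: Polk, a translesion polymerase, rose by 0.95 ± 0.09, and Polm, which fills ends in break joining, fell by 0.46 (SE 0.10; past the threshold in 1 of 8 fits without 1 array). At an unadjusted p under 0.05, 5 of the 12 were lower and 1 higher. The checkpoint clamp and its loader, relatives of PCNA and RFC, had 0 of 4 past the threshold in either direction and 0 at an unadjusted p under 0.05, with Rad17, the loader's large subunit, at -0.04 and Rad9a, a clamp subunit, at -0.03. The differences of the 4 genes ran from -0.42 to 0.19. Of 11 remaining accessory genes the histone chaperone gene Chaf1b rose (1.10 ± 0.10) and the histone chaperone gene Asf1b fell (-0.67 ± 0.10). Mitosis and G2/M genes were lower: of 24, 10 fell and 0 rose (18 were lower and 0 higher at an unadjusted p under 0.05), with a median of -0.45, led by Nusap1 (-0.91 ± 0.11), Nuf2 (-0.80 ± 0.11), Ndc80 (-0.88 ± 0.12) and Cenpf (-0.98 ± 0.14), genes of the spindle and kinetochore. Leaving out control replicate 1, 3 or 4 or experimental replicate 4 left 5 that fell, and 6 fell when control replicate 2 or experimental replicate 1 was dropped.

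**Figure D4:**
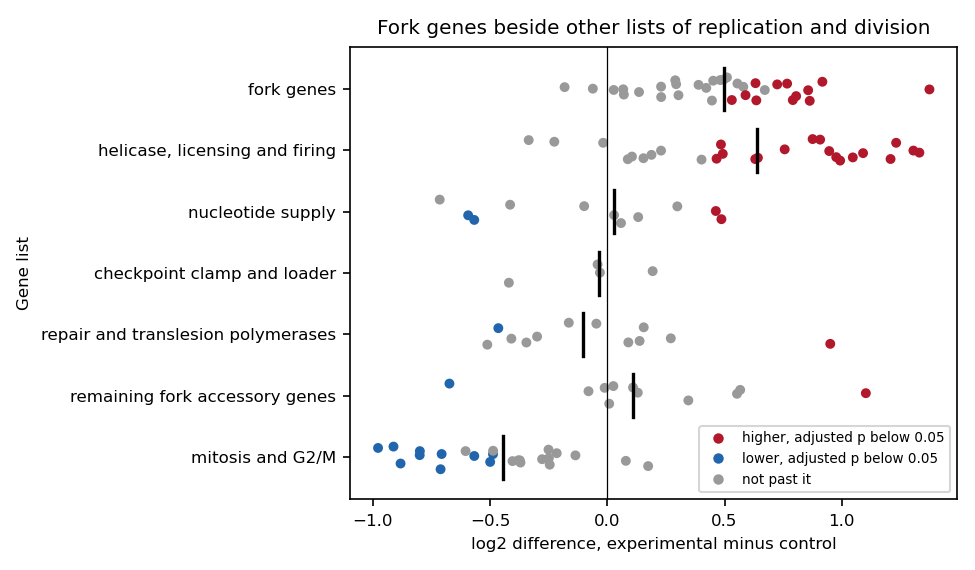
Log2 difference, experimental minus control, of each gene (points) in the fork list and 6 other lists, with the median of each list (black line); red and blue mark genes higher or lower at adjusted p below 0.05. The fork genes (median 0.50) and the helicase, licensing and firing genes (median 0.64) lie mostly to the right of 0, and the mitosis and G2/M genes (median -0.45) mostly to the left.

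Several measures moved with the groups beside the fork genes. The actin control probe sets, read as 3' over 5' signal to follow RNA degradation, gave 0.27 to 0.32 (log2) in controls and 0.34 to 0.54 in experimental arrays, without overlap, while those of Gapdh overlapped (-0.14 to -0.09 and -0.16 to 0.03). Of 11 measured B cell markers 7 fell, and their summed level, on the log2 scale, was 10.98 to 11.91 in controls and 9.84 to 10.37 in experimental arrays. That count was 4 without control replicate 4. Of 7 megakaryocyte markers 4 fell (summed level 9.30 to 9.95 and 8.63 to 8.81; 2 fell without control replicate 2), and of 8 dendritic cell markers 3 fell (10.76 to 11.07 and 9.35 to 11.21). Of those 3, Siglech and Ccr9 lost the call without control replicate 2, and Cd209a kept it with any 1 array left out. Of 7 eosinophil and mast cell markers 2 rose (10.65 to 11.15 and 10.40 to 11.12): Epx, which kept the call in all 8 fits without 1 array, and Siglecf, which kept it in 3. At an unadjusted p under 0.05, 2 of these 7 were higher and 2 lower, Ms4a2 (-0.77) and Gata2 (-0.55). No marker passed among 9 of T and NK cells (at an unadjusted p under 0.05, 4 were higher), 7 of erythroid cells (2 higher), 9 of monocytes and macrophages (2 lower) and 8 of stem and progenitor cells (3 lower). The summed levels of these 4 lists overlapped between the groups (10.67 to 12.58 and 11.72 to 12.37, 12.54 to 12.80 and 12.28 to 13.80, 12.34 to 13.12 and 12.25 to 12.70, and 11.12 to 11.47 and 11.04 to 11.47). The neutrophil lineage list, the defining one for these cells, had Csf3r lower (-0.65 ± 0.09) and 12 of 13 not past the threshold. Of its 13 differences 10 were below 0 and 3 above, up to 0.70, among them Mpo (0.27) and Elane (0.26). At an unadjusted p under 0.05, 1 was higher and 1 lower. The summed level of the list was 17.27 to 17.39 in controls and 17.27 to 17.34 in experimental arrays. That sum is led by S100a9 (14.46), Camp (14.39), S100a8 (14.36) and Ltf (14.29), which lie near the highest value of the arrays, so it says little about a change. The sort marker Itgam was among the brighter genes (11.58 ± 0.07 in controls and 11.54 ± 0.27 in experimental arrays, SD, n = 4 each). No marker can be at 0 on this scale. The part of the actin ratio and of these cell types in the fork gene differences was not tested.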

How the data were processed

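Affymetrix arrays had been hybridised with labelled cRNA from 2.5 µg of total RNA per sample. Deposited log2 values, normalized by RMA by the authors per the labels, were used as given for 8 arrays (4 per group). Of 45101 probe sets, 64 controls were left out. Of the 45037 tested, 34945 had 1 symbol in the platform annotation, 932 several and 9160 none, and names came only from the first kind. Each probe set was fitted with limma 3.58.1 (R 4.3.3, lmFit and eBayes, group only), with Benjamini-Hochberg adjustment over all probe sets and a threshold of 0.05. Fork genes were all named, and their other probe sets were named where the sign or call differed. The members and lists were chosen with earlier results of these data known. Deviations from the group means correlated in all 4 pairs of same-numbered samples (r = 0.20 to 0.26). The main fit did not use the replicate numbers of the titles, which entered only as a block among the alternatives. Other pairs with the same style of sample code (replicates 1 and 2, or 3 and 4) correlated to a like degree (0.14 to 0.26), so the shared factor may be the style and not the number. Pairs across styles correlated negatively (-0.27 to -0.13). Deviations from a group mean cancel out within the group, so positive pairs force negative ones, which add no separate evidence. Alternatives covered scaling, filters, variance models, array weights, blocks, the probe set of a gene and leaving out each array. Promoter windows and their coordinates came from RefSeq (GRCm38.p6).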

Additional observations from a re-analysis of the deposited data

Results flagged for a closer look

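Among 66 groups of 4 arrays (33 fork genes in 2 groups), 5 held an array far from the other 3 by Dixon's criterion at 95%, where chance gives about 1 in 20. In 4 of the 5 it was control replicate 2, low: Prim2 at 7.83 against 8.12 to 8.17, Rfc1 at 8.93 against 9.06 to 9.08, Tipin at 9.16 against 9.56 to 9.59, and Clspn at 8.20 against 8.49 to 8.54. In the fifth, Rfc4 in control replicate 1 was high, at 8.62 against 8.18 to 8.24.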

How the results depend on the processing

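No fork gene was lower at the threshold under any of the 21 alternatives run. Of 693 values of single genes under alternatives, 595 kept direction and side of the threshold, 57 lost the call, 29 gained it and 12 changed sign, none of these 12 in a gene that rose. The number of fork genes that rose was 17 with the replicate block, 19 with the code style as a block, 9 with inferred sex as a block, 1 within replicates 1 and 2, 3 within replicates 3 and 4 (fits of 2 arrays per group) and 7 to 13 with an array left out. The probe sets called numbered 1162 of 45037 in the main fit, 2277 with the replicate block, 2582 with the code style and 663 with inferred sex. They numbered 130 and 418 within replicates 1 and 2 and within 3 and 4. With an array left out they numbered 395 (without control replicate 2) to 1744 (without experimental replicate 2). Signs turned for Pcna with quantile normalization (-0.015), for Pole4 (-0.30), Rfc1 (-0.12) and Clspn (-0.14) with the most variable probe set, for Pole4 (-0.014) and Clspn (-0.0044) with the mean of probe sets, for Pola1 (-0.021) and Dna2 (-0.078) within replicates 1 and 2, and for Pold2 (0.31) within replicates 3 and 4. With an array left out, Pola1 ranged from -0.018 to 0.13, Pcna from -0.043 to 0.10 and Pold2 from -0.48 to 0.19. The cause was not tested. Of the 12 genes that rose, 7 kept the call in all 8 such fits, 1 in 7 and 4 in 2 or fewer.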
